A study of Mus musculus with 16 samples.

Results

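A set of 42 genes of endothelium, endocardium and coronary vessels was listed by symbol, and 40 of them matched 1 row each of a table of 37991 mouse genes. The other 2 names, Npr3l and Robo4l, matched no row. The genes were measured by RNA sequencing in both ventricles of 8 mouse embryos, left and right apart, which made 16 libraries. The 3 HLHS embryos, with hypoplastic left heart syndrome, are numbered by stage: embryo 1 was taken at E13.5, embryo 2 at E14.5 and embryo 3 at E17.5. The 5 littermate controls were embryo 1 of stage E13.5, embryos 2 and 3 of stage E14.5, and embryos 4 and 5 of stage E17.5. All embryos had the C57BL/6 background. The labels give a phenotype and no genotype, so the alleles that HLHS embryos or controls carried are not stated there, although the mouse line is known for mutations of Sap130 and Pcdha9. Each stage holds 1 HLHS embryo. The sample titles of a stage share a number of their own, read here as 1 litter, so the effect of a stage and of a litter cannot be told apart. The title prefix of the E14.5 samples also differs from that of the other stages, and what goes with it cannot be told apart from stage either.

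Endothelial cells line all blood vessels, and the endocardium is the endothelium that faces the heart chamber. Both are held together by VE-cadherin and claudin-5 at their junctions, depend on VEGF and angiopoietin receptors, and are specified by ETS, SOX and SCL factors. In the embryonic ventricle the coronary plexus forms from sinus venosus endothelium and endocardium, spreads as capillary, and is remodelled into arteries and veins, while shear stress from flow raises Klf2, Klf4 and Nos3. The 40 genes were described in 7 groups: 12 pan-endothelial surface and junction genes, 4 receptors, 7 transcription factors, 5 endocardial and flow-responsive genes, 3 arterial, 3 venous and 6 capillary genes.

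Promoter sequence was at hand for 20 of the 40 genes in the RefSeq promoter table of build GRCm38.p6, and 3 are shown because their genes carry the HLHS results below: Cldn5 and Cxcr4 had lower counts in both ventricles, and Ackr3 differed in effect between them. Each line holds the 200 bases before the annotated start, 5′ to 3′ on the gene's strand, at chr16:18776647-18776846 (plus strand) for Cldn5, chr1:128592300-128592499 (minus strand) for Cxcr4 and chr1:90203780-90203979 (plus strand) for Ackr3. Capitals mark CAGGAA or CCGGAA on either strand, 2 motifs that share the GGAA core of ETS factors such as Erg, Fli1 and Ets1.

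Cldn5: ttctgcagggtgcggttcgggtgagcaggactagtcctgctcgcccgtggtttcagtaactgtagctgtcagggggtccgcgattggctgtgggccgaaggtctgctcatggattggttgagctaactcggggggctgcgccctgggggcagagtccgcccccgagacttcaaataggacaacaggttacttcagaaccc
Cxcr4: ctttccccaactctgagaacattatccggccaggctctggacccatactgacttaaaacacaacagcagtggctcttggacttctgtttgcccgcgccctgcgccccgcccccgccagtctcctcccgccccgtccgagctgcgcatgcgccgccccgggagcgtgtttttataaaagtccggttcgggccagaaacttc
Ackr3: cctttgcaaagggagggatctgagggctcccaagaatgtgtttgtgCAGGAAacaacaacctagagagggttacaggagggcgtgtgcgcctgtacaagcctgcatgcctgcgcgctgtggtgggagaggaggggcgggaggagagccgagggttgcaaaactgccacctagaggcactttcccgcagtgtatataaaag

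Of the 3 windows, the one of Ackr3 held 1 capitalised motif, and those of Cldn5 and Cxcr4 held 0. The same window of Apln, a gene lower in HLHS left ventricles, is not shown and held 1. In the 250 bases before the start, 9 of the 20 genes held at least 1 of the 2 motifs on either strand (45.0%), as did 34.9% of the 27025 promoters in the table. CAGGAA was in 7 of the 20 windows (35.0%) and in 25.4% of all, and CCGGAA was in 2 of the 20 and in 12.2% of all. ACAATG, a motif of SOX factors, was in 0 of the 20 windows and in 2969 of the 27025, and CCACCC, a motif of KLF factors, in 30.0% and 27.7%.

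The libraries held 17081273 to 28648645 counts each, and levels are given as CPM, a gene's count scaled to a library of 1000000 counts. As a check of the labelled tissue, marker genes of heart muscle summed to 25923 to 31397 CPM in HLHS left ventricles, against 24433 to 35295 CPM in control left ventricles, and those of liver to at most 16.8 CPM in any library. On the right heart muscle genes summed to 24628 to 32056 CPM in HLHS, against 29887 to 39147 CPM in controls. There all 10 had log2 fold changes below 0 and 3 passed as lower by edgeR (9 at an unadjusted p under 0.05, 8 by DESeq2), while 2 of 10 macrophage genes, Mrc1 and F13a1, passed as higher. The 40 genes together summed to 2688 to 3527 CPM in HLHS left ventricles, against 3206 to 3500 CPM in control left ventricles (3 and 5 libraries). In right ventricles the sums were 3001 to 3714 CPM in HLHS and 3430 to 3645 CPM in controls, and the ranges overlapped on both sides. Red cell genes moved with phenotype on the left: 9 of 11 tested were higher in HLHS, and their sum was 742 to 1343 CPM in HLHS left ventricles, against 451 to 866 CPM in control left ventricles. Fibroblast genes summed to 3660 to 4336 CPM in HLHS left ventricles, against 4344 to 5169 CPM in control left ventricles, and 4 of 8 were lower. On the right, fibroblast genes summed to 5087 to 6779 CPM in HLHS and 2909 to 6190 CPM in controls, and 0 of 8 passed by edgeR, although 7 had an unadjusted p under 0.05 and DESeq2 called 4. Smooth muscle and pericyte genes summed to 2287 to 3445 CPM in HLHS left ventricles, against 2024 to 2217 CPM in control left ventricles, but 3 of the 10 passed as higher and 3 as lower there. What part these other cells have in the results below was not tested. In whole ventricles, fewer endothelial cells and less RNA of a gene per cell cannot be told apart.

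In the left ventricle 11 of the 40 genes passed an adjusted p of 0.05 between HLHS and control, 9 lower and 2 higher in HLHS, by the quasi-likelihood test of edgeR with a stage term and Benjamini-Hochberg adjustment over all genes tested. Of all 15979 genes tested there, 12.8% passed in either direction, 6.61% as lower and 6.17% as higher. The lower genes were Cdh5, Cldn5, Esam, Erg, Fli1, Sox7, Cxcr4, Apln and Gpihbp1, and the higher ones were Vwf and Nfatc1. The median log2 fold change of HLHS over control was -0.15 over the 40 genes and 0.007 over all genes tested, and 29 of the 40 lay below 0. In the right ventricle 5 of the 40 passed, Cldn5, Cxcr4, Aplnr and Gpihbp1 as lower and Ackr3 as higher, where 6.61% of 16142 genes tested passed in either direction, 3.05% as lower and 3.56% as higher. There the median was -0.07 over the 40 genes and 0.008 over all, and 27 lay below 0. Cldn5, Cxcr4 and Gpihbp1 passed in both ventricles. The left count fell to 5 without control embryo 1 or HLHS embryo 1, to 7 without control embryo 2 or 4, and to 2 without HLHS embryo 2, and it was 18 without HLHS embryo 3. The right count was 2 without control embryo 1 or HLHS embryo 1, 3 without control embryo 3 or 5, and 1 without HLHS embryo 2 or 3. With no stage term 0 genes passed in either ventricle. Stage E13.5 holds 1 embryo of each phenotype, so leaving out either takes that stage out of the HLHS effect. For HLHS effects here and below, leaving out HLHS embryo 1 and leaving out control embryo 1 are therefore not separate checks.

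**Figure D1:**
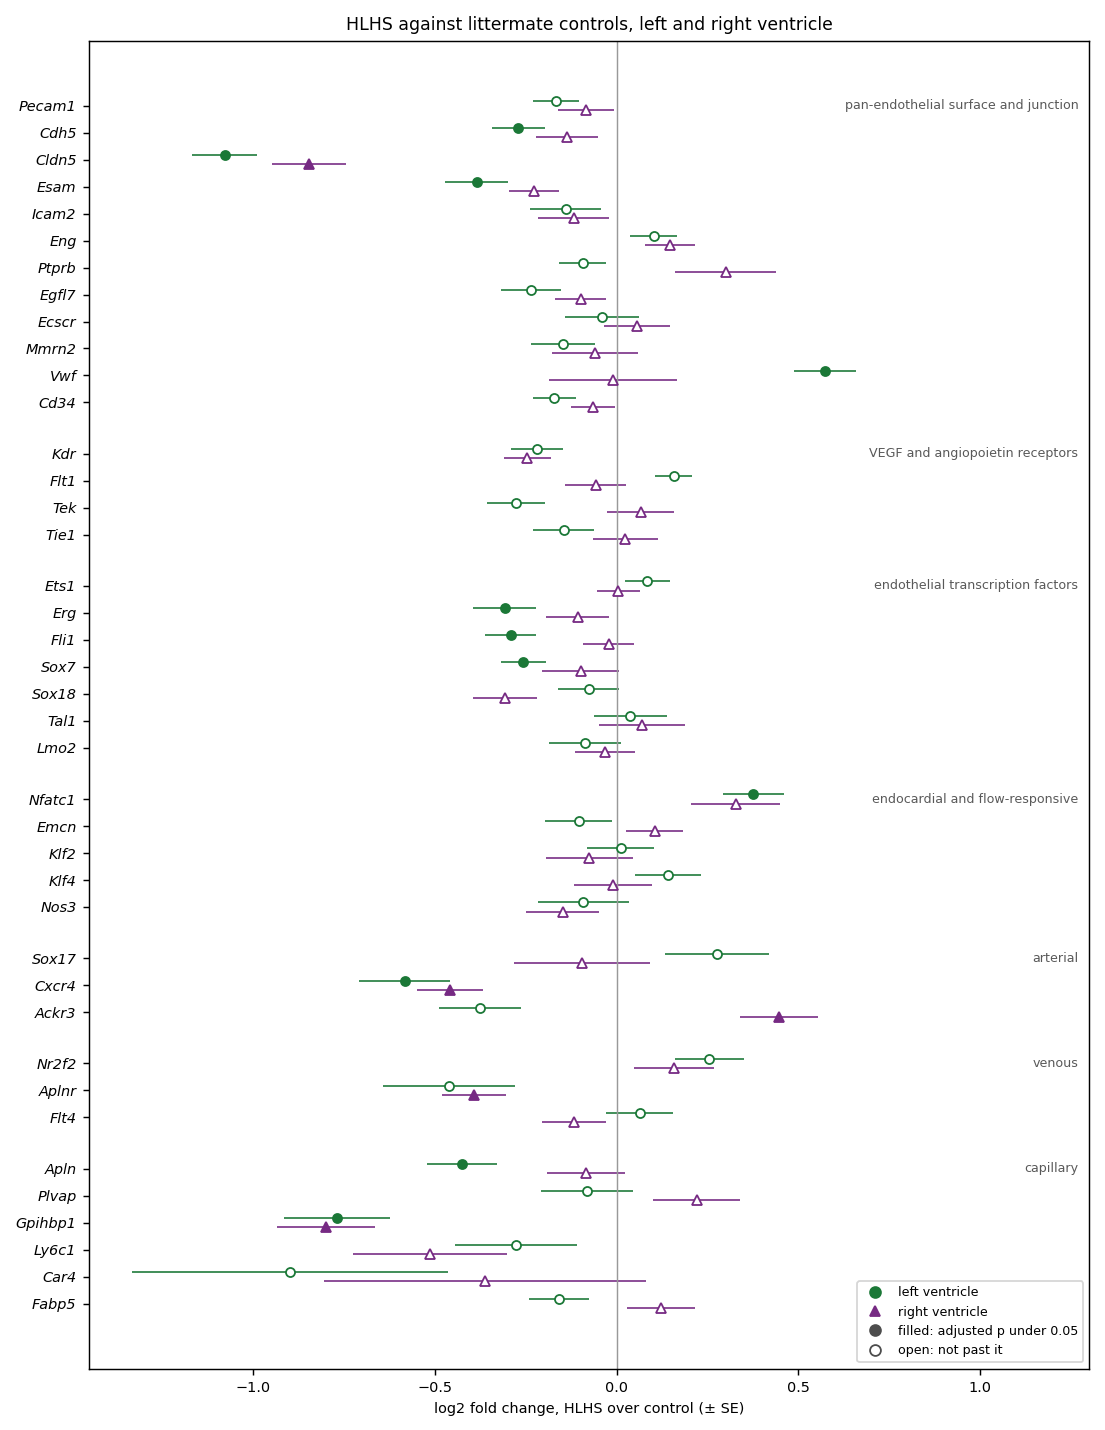
Log2 fold change of HLHS over control with its SE for each of the 40 genes, in the left ventricle (circles) and the right ventricle (triangles), grouped by role; filled symbols passed an adjusted p of 0.05. Cldn5 lies farthest left among the filled symbols in both ventricles, at -1.08 and -0.85, and Vwf and Nfatc1 are filled to the right of 0 in the left ventricle.

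Among the 12 pan-endothelial surface and junction genes, Cldn5, Cdh5 and Esam were lower in HLHS left ventricles, Vwf was higher, and 8 did not pass. Values below are in the order E13.5, E14.5, E17.5, with 1 HLHS embryo a stage and with 1, 2 and 2 control embryos. Cldn5, which encodes claudin-5 of endothelial tight junctions, had 13.4, 16.2 and 27.2 CPM in HLHS left ventricles, against 29.9, 38.1, 42.7, 49.7 and 47.5 CPM in control left ventricles. On the right Cldn5 had 12.3, 21.6 and 23.5 CPM in HLHS right ventricles, against 21.8, 37.2, 42.03, 44.7 and 36.2 CPM in control right ventricles. Every HLHS left library lay below every control left library, and on the right HLHS lay below each littermate at all 3 stages, with only the E17.5 HLHS library above the E13.5 control. Cldn5 was 2.11-fold lower in HLHS on the left (log2 fold change -1.08 ± 0.09 SE, edgeR adjusted p = 0.000327) and 1.8-fold lower on the right (log2 fold change -0.85 ± 0.10 SE, edgeR adjusted p = 0.00663), and it passed without any 1 embryo. Cdh5, VE-cadherin of the adherens junction, had 303, 249 and 337 CPM in HLHS left ventricles, against 386, 343, 354, 339.8 and 355 CPM in control left ventricles. It had 277, 333 and 352 CPM in HLHS right ventricles, against 362, 383, 369, 312 and 333 CPM in control right ventricles. On the left all HLHS libraries were below all control libraries, closely so at E17.5, while on the right the E17.5 HLHS library was above its littermates. Cdh5 was 1.21-fold lower on the left (log2 fold change -0.27 ± 0.07 SE, edgeR adjusted p = 0.0379) and did not pass on the right (log2 fold change -0.14 ± 0.09 SE, edgeR adjusted p = 0.383); the left call was lost without HLHS embryo 1 or 2 or control embryo 1 or 2 or 3 or 5 (log2 fold change -0.28 to -0.18, edgeR adjusted p 0.0525 to 0.211).

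Esam, an adhesion molecule of endothelial junctions, had 62.4, 55.98 and 91.8 CPM in HLHS left ventricles, against 84.5, 85.6, 95.1, 100.4 and 96.7 CPM in control left ventricles. It had 63.1, 77.6 and 85.8 CPM in HLHS right ventricles, against 81.7, 85.4, 87.8, 99.9 and 90.5 CPM in control right ventricles. HLHS lay below each littermate on both sides at all stages, and the whole groups overlapped. Esam passed on the left (log2 fold change -0.39 ± 0.09 SE, edgeR adjusted p = 0.0204), where the call was lost without HLHS embryo 1 or 2 or control embryo 1 (log2 fold change -0.38 to -0.25, edgeR adjusted p 0.0736 to 0.116). Pecam1, the platelet and endothelial adhesion molecule CD31, had 185, 184 and 236 CPM in HLHS left ventricles, against 206, 219, 250.2, 241 and 245 CPM in control left ventricles. It had 178, 241 and 247 CPM in HLHS right ventricles, against 225, 245, 251, 232 and 230.1 CPM in control right ventricles. HLHS was below its littermates on the left at all 3 stages, and the test was not passed there (log2 fold change -0.17 ± 0.06 SE, edgeR adjusted p = 0.118) or on the right (log2 fold change -0.08 ± 0.08 SE, edgeR adjusted p = 0.556). Vwf, the von Willebrand factor that binds platelets, had 101, 85.7 and 112 CPM in HLHS left ventricles, against 61.7, 58.7, 57.5, 91.3 and 73.5 CPM in control left ventricles. It had 56.9, 57.3 and 128 CPM in HLHS right ventricles, against 70.5, 89.8, 69.8, 80.2 and 84.3 CPM in control right ventricles. On the left HLHS lay above each littermate at all 3 stages; on the right it lay below at E13.5 and E14.5 and above at E17.5. Vwf was 1.49-fold higher on the left (log2 fold change 0.57 ± 0.09 SE, edgeR adjusted p = 0.00401), a call that held without any 1 embryo, and the right value was -0.01 ± 0.18 with an edgeR adjusted p of 0.982. The difference between the ventricles in this effect did not pass (log2 fold change 0.60 ± 0.21 SE, edgeR adjusted p = 0.264).

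**Figure D2:**
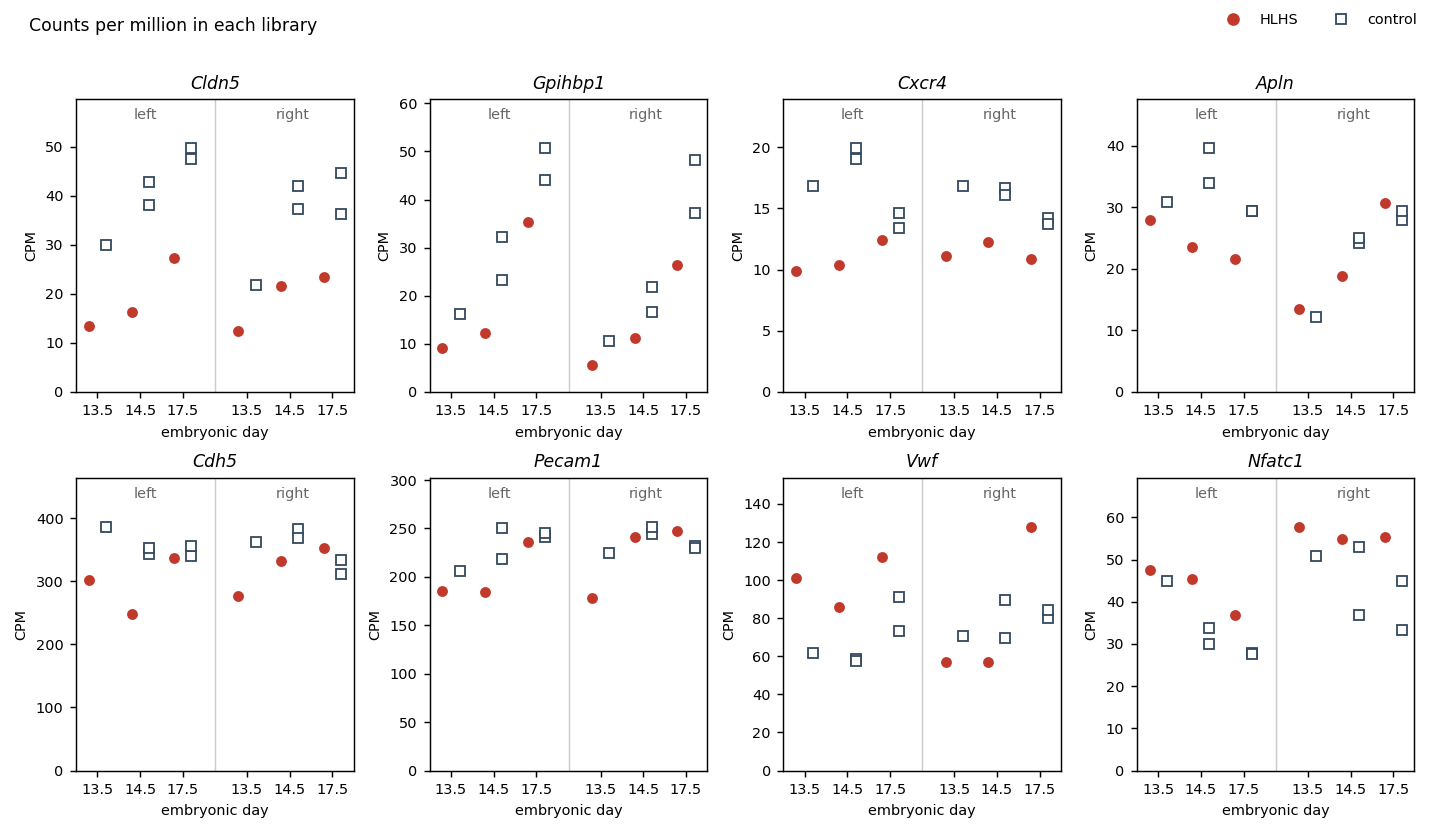
CPM of 8 genes in each of the 16 libraries, left and right ventricle by embryonic day; filled circles are HLHS embryos and open squares controls. Cldn5, Gpihbp1 and Cxcr4 of HLHS lie below all littermates in every litter and on both sides, while Vwf lies above them on the left only, apart from the E17.5 litter on the right.

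The other members of this group did not pass between HLHS and control in either ventricle. Eng, the TGF-beta co-receptor endoglin, had 325, 252 and 262 CPM in HLHS left ventricles, against 303, 236, 260.5, 253 and 223 CPM in control left ventricles. It had 332, 335 and 343 CPM in HLHS right ventricles, against 326, 314, 277, 293 and 286 CPM in control right ventricles. HLHS libraries of Eng lay within or above the littermates' range on both sides. Ptprb, the phosphatase VE-PTP that dephosphorylates Tie2, had 66.9, 46.1 and 78.1 CPM in HLHS left ventricles, against 73.05, 51.5, 50.6, 74.5 and 87.9 CPM in control left ventricles. It had 101, 74.4 and 95.5 CPM in HLHS right ventricles, against 65.4, 86.8, 56.2, 68.9 and 83.1 CPM in control right ventricles. The right HLHS library of Ptprb was above its littermates at E13.5 and E17.5 and between them at E14.5. Cd34, a sialomucin of endothelium and blood progenitors, had 132, 171 and 206 CPM in HLHS left ventricles, against 164, 188, 205, 229.8 and 206 CPM in control left ventricles. It had 135, 180.1 and 198 CPM in HLHS right ventricles, against 148, 177, 174, 216 and 202 CPM in control right ventricles. The groups overlapped on both sides. Ecscr, an endothelial surface protein of migration and apoptosis, had 27.99, 27.8 and 27.8 CPM in HLHS and 31.2, 33.1, 35.9, 24.7 and 21.4 CPM in control left ventricles, and 26.8, 35.95 and 28.7 CPM in HLHS and 30.6, 31.5, 34.03, 26.4 and 23.8 CPM in control right ventricles. Mmrn2, the matrix protein multimerin-2, had 120.4, 79.9 and 80.2 CPM in HLHS and 117, 107, 117, 81.8 and 77.9 CPM in control left ventricles, and 94.6, 139 and 99.5 CPM in HLHS and 145, 129.9, 134, 79.5 and 88.3 CPM in control right ventricles. In both genes HLHS and control ranges overlapped on each side. Icam2 and Egfl7 passed in no comparison, with log2 fold changes of -0.14 ± 0.10 and -0.23 ± 0.08 on the left and -0.12 ± 0.10 and -0.10 ± 0.07 on the right.

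None of the 4 receptors of VEGF and angiopoietins passed between HLHS and control in either ventricle by edgeR; 3 on the left and 1 on the right had an unadjusted p under 0.05, and DESeq2 called 2 and 1. Kdr, the main signalling receptor of VEGF-A, had 178, 143 and 246 CPM in HLHS left ventricles, against 222, 193, 184, 261 and 234 CPM in control left ventricles. It had 157, 169 and 219 CPM in HLHS right ventricles, against 201, 214, 199.98, 228 and 236 CPM in control right ventricles. HLHS was below each littermate at E13.5 and E14.5 on the left and at all 3 stages on the right, by little at E17.5. The Kdr log2 fold change was -0.22 ± 0.07 on the left (edgeR adjusted p = 0.0752) and -0.24 ± 0.06 on the right (edgeR adjusted p = 0.051); by DESeq2 both passed, at adjusted p of 0.0351 and 0.0201. Flt1, the decoy receptor VEGFR1, had 109, 88.9 and 115 CPM in HLHS left ventricles, against 108, 77.9, 77.4, 100.3 and 102 CPM in control left ventricles. It had 87.3, 90.8 and 112 CPM in HLHS right ventricles, against 108, 103, 90.02, 92.3 and 105 CPM in control right ventricles. Flt1 lay above its littermates in HLHS left ventricles at all 3 stages, without passing by edgeR (log2 fold change 0.16 ± 0.05 SE, edgeR adjusted p = 0.0728). Tek, the angiopoietin receptor Tie2, had 108, 80.7 and 96.3 CPM in HLHS left ventricles, against 119.5, 112, 128, 106 and 104 CPM in control left ventricles. It had 118, 169 and 124 CPM in HLHS right ventricles, against 147, 153, 145, 96.5 and 111 CPM in control right ventricles. Tie1, its partner receptor, had 206, 148 and 181 CPM in HLHS left ventricles, against 238, 191, 212, 166 and 161 CPM in control left ventricles. It had 216, 277 and 201 CPM in HLHS right ventricles, against 277, 253, 243, 174 and 174 CPM in control right ventricles. In HLHS left ventricles Tek lay below its littermates at all 3 stages, and Tie1 below them at E13.5 and E14.5 and above at E17.5. On the right both lay below at E13.5 and above at E14.5 and E17.5. Neither was called by edgeR (log2 fold change -0.28 ± 0.08 SE, edgeR adjusted p = 0.0503 for Tek and log2 fold change -0.14 ± 0.08 SE, edgeR adjusted p = 0.288 for Tie1 on the left).

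Of the 7 transcription factors, Erg, Fli1 and Sox7 were lower in HLHS left ventricles and 4 did not pass; on the right 0 of 7 passed by edgeR, where Sox18 had an unadjusted p under 0.05 and was the 1 gene called by DESeq2. Erg and Fli1 are ETS factors that maintain endothelial identity, and Sox7 is a SOXF factor of vessel formation. Erg had 29.8, 22.2 and 31.4 CPM in HLHS left ventricles, against 37.6, 34.1, 32.8, 32.9 and 32.5 CPM in control left ventricles. It had 30.5, 38.6 and 34.5 CPM in HLHS right ventricles, against 40.3, 40.9, 37.4, 32.8 and 33.7 CPM in control right ventricles. On the left all HLHS libraries lay below all control libraries, with the E17.5 library close to them. Fli1 had 16.5, 27.9 and 34.3 CPM in HLHS left ventricles, against 22.3, 36.1, 32.8, 39.1 and 41.1 CPM in control left ventricles. It had 19.4, 33.9 and 36.1 CPM in HLHS right ventricles, against 20.7, 33.4, 31.6, 36.4 and 36.5 CPM in control right ventricles. Fli1 in HLHS left ventricles was below each littermate at all 3 stages, while levels of both groups were lowest at E13.5. Sox7 had 49.05, 39.3 and 45.9 CPM in HLHS left ventricles, against 62.5, 48.8, 51.2, 49.5 and 51.5 CPM in control left ventricles. It had 45.97, 59.4 and 48.9 CPM in HLHS right ventricles, against 63.9, 62.3, 50.5, 44.1 and 51.4 CPM in control right ventricles. Sox7 in HLHS left ventricles was also below each littermate at all 3 stages. The left differences were small: log2 fold change -0.31 ± 0.09 SE, edgeR adjusted p = 0.0462 for Erg, log2 fold change -0.29 ± 0.07 SE, edgeR adjusted p = 0.0251 for Fli1 and log2 fold change -0.26 ± 0.06 SE, edgeR adjusted p = 0.0247 for Sox7. Erg lost its call without HLHS embryo 1 or 2 or control embryo 1 or 2 or 3 or 4 or 5 (log2 fold change -0.34 to -0.18, edgeR adjusted p 0.052 to 0.244). Fli1 lost it without HLHS embryo 1 or 2 or control embryo 1 or 2 or 4 or 5 (log2 fold change -0.31 to -0.25, edgeR adjusted p 0.0516 to 0.0889), and Sox7 without HLHS embryo 1 or 2 or control embryo 1 or 2 or 3 (log2 fold change -0.26 to -0.23, edgeR adjusted p 0.06 to 0.121). Fli1, Tal1 and Lmo2 are also genes of blood cells, and the red cell sums above moved with phenotype on the left.

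Ets1, an ETS factor of angiogenesis, had 150.1, 139 and 204 CPM in HLHS and 158, 146, 143, 169.99 and 163 CPM in control left ventricles, and 135, 145 and 173 CPM in HLHS and 143, 155, 140.01, 154 and 158 CPM in control right ventricles. Sox18, a SOXF factor of lymphatic and vessel development, had 32.3, 37.9 and 59.3 CPM in HLHS and 40.3, 42.6, 45.4, 53.6 and 50.999 CPM in control left ventricles, and 28.4, 33.7 and 45.4 CPM in HLHS and 37.9, 42.1, 44.2, 54.1 and 45.97 CPM in control right ventricles. In Ets1 and Sox18 the E17.5 HLHS left library was above its littermates and the earlier ones were below. Tal1, the SCL factor of blood and endocardium, had 18.02, 11.2 and 12.1 CPM in HLHS and 16.1, 11.9, 13.3, 12.03 and 10.6 CPM in control left ventricles, and 16.2, 19.97 and 16.2 CPM in HLHS and 20.9, 17.47, 15.02, 13.55 and 14.8 CPM in control right ventricles. Lmo2, its nuclear partner, had 24.01, 21.8 and 22.7 CPM in HLHS and 26.02, 28.4, 29.7, 19.4 and 19.6 CPM in control left ventricles, and 23.04, 31.9 and 21.5 CPM in HLHS and 26.9, 29.3, 30.5, 21.8 and 20.8 CPM in control right ventricles. Neither gene passed on either side, and the groups overlapped in each case.

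Of the 5 endocardial and flow-responsive genes, Nfatc1 was higher in HLHS left ventricles and the other 4 did not pass; 0 of 5 passed on the right by edgeR or DESeq2, with Nfatc1 alone at an unadjusted p under 0.05. Nfatc1 is a factor of endocardial cushion and valve formation that marks endocardium. It had 47.6, 45.5 and 36.98 CPM in HLHS left ventricles, against 44.8, 30.02, 33.8, 27.9 and 27.7 CPM in control left ventricles. It had 57.7, 54.9 and 55.4 CPM in HLHS right ventricles, against 50.8, 52.97, 36.8, 33.4 and 44.8 CPM in control right ventricles. HLHS was above each littermate on both sides at all 3 stages. On the left the groups overlapped across stages, and on the right every HLHS library lay above every control library. Nfatc1 was 1.3-fold higher on the left (log2 fold change 0.38 ± 0.08 SE, edgeR adjusted p = 0.0198), lost without HLHS embryo 2 or control embryo 4 (log2 fold change 0.27 to 0.38, edgeR adjusted p 0.051 to 0.126), and did not pass on the right (log2 fold change 0.33 ± 0.12 SE, edgeR adjusted p = 0.145). Klf2, a factor raised by shear stress, had 20.4, 18.9 and 46.1 CPM in HLHS left ventricles, against 25.3, 19.7, 18.6, 42.2 and 37.3 CPM in control left ventricles. It had 31.7, 27.8 and 41.3 CPM in HLHS right ventricles, against 34.1, 31.9, 23.97, 49.7 and 37.2 CPM in control right ventricles. Klf4, a related flow-responsive factor, had 11.8, 15.7 and 31.2 CPM in HLHS and 10.9, 12.8, 15.3, 30.8 and 26.9 CPM in control left ventricles, and 15.3, 16.5 and 29.002 CPM in HLHS and 12.7, 19.6, 17.3, 31.5 and 26.5 CPM in control right ventricles. Values of both Klf genes at E17.5 were above those of the earlier stages in both groups, and neither passed between HLHS and control. Nos3, the endothelial nitric oxide synthase, had 41.7, 34.7 and 51.6 CPM in HLHS left ventricles, against 60.3, 40.1, 44.3, 39.6 and 40.7 CPM in control left ventricles. It had 49.6, 56.1 and 49.5 CPM in HLHS right ventricles, against 74.2, 55.7, 54.1, 47.8 and 49.4 CPM in control right ventricles. Nos3 in HLHS was below its littermate at E13.5 and not at E17.5. The log2 fold changes on the left were 0.01 ± 0.09 for Klf2, 0.14 ± 0.09 for Klf4 and -0.09 ± 0.12 for Nos3, with SE, and the edgeR adjusted p were 0.954, 0.345 and 0.679. Emcn, an endomucin of veins, capillaries and endocardium, passed in no comparison.

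Of the 3 arterial genes, Cxcr4 was lower in HLHS on both sides and Ackr3 was higher on the right. Cxcr4 encodes the signalling receptor of the chemokine CXCL12, and Ackr3 a scavenging receptor of the same ligand. Cxcr4 had 9.84, 10.4 and 12.4 CPM in HLHS left ventricles, against 16.8, 19.1, 19.9, 14.7 and 13.4 CPM in control left ventricles. It had 11.1, 12.3 and 10.9 CPM in HLHS right ventricles, against 16.9, 16.6, 16.1, 14.2 and 13.7 CPM in control right ventricles. No HLHS library reached the lowest control library of its side. Cxcr4 was 1.5-fold lower on the left (log2 fold change -0.58 ± 0.12 SE, edgeR adjusted p = 0.0172) and 1.37-fold lower on the right (log2 fold change -0.46 ± 0.09 SE, edgeR adjusted p = 0.0202). The left call was lost without HLHS embryo 1 or 2 or control embryo 1 (log2 fold change -0.52 to -0.43, edgeR adjusted p 0.0691 to 0.104), and the right call without HLHS embryo 1 or 2 or 3 or control embryo 1 or 3 (log2 fold change -0.50 to -0.41, edgeR adjusted p 0.053 to 0.0957).

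Ackr3 had 43.9, 24.6 and 24.3 CPM in HLHS left ventricles, against 50.001, 41.9, 44.99, 26.7 and 26.7 CPM in control left ventricles. It had 60.2, 68.7 and 60.9 CPM in HLHS right ventricles, against 58.7, 50.99, 40.3, 39.6 and 38.8 CPM in control right ventricles. On the left HLHS lay below each littermate, and on the right every HLHS library lay above every control library. Ackr3 was 1.36-fold higher in HLHS right ventricles (log2 fold change 0.45 ± 0.11 SE, edgeR adjusted p = 0.0396) and did not pass on the left by edgeR (log2 fold change -0.38 ± 0.11 SE, edgeR adjusted p = 0.0559). On the left edgeR called 1 of the 3 arterial genes and DESeq2 called 2. Ackr3 was the only one of the 40 genes whose HLHS effect passed as different between the ventricles, left minus right (log2 fold change -0.83 ± 0.17 SE, edgeR adjusted p = 0.0438), where 1.04% of 16508 genes tested passed in either direction and 0.503% as lower. Within embryos, left minus right was -0.46, -1.48 and -1.32 on the log2 CPM scale in HLHS, against -0.23, -0.28, 0.16, -0.56 and -0.54 in controls. The E13.5 HLHS embryo thus lay among the controls, and the later 2 lay beyond them. In HLHS embryos Ackr3 was 2.08-fold lower on the left than on the right (log2 fold change -1.05 ± 0.16 SE, edgeR adjusted p = 0.0109), lost without HLHS embryo 2 (log2 fold change -0.89, edgeR adjusted p = 0.0509), and in controls the same contrast did not pass by edgeR (log2 fold change -0.30 ± 0.09 SE, edgeR adjusted p = 0.0762). In that control contrast edgeR called 0 of the 3 arterial genes and DESeq2 called 1. The difference between ventricles did not pass without a side-by-stage term (log2 -0.77, edgeR adjusted p = 0.222) or without HLHS embryo 2 or 3 or control embryo 3 or 4 or 5 (log2 fold change -0.86 to -0.53, edgeR adjusted p 0.0618 to 0.14). The right ventricle call was lost without HLHS embryo 2 or 3 or control embryo 3 or 4 or 5 (log2 fold change 0.36 to 0.44, edgeR adjusted p 0.0603 to 0.193). Fibroblast genes moved the same way, with 4 of 8 tested passing as lower in effect on the left, and so did 2 of 8 epicardial genes. Of 10 heart muscle genes 1 passed as lower, although 8 lay above 0. As higher there passed 2 of 12 red cell genes and 1 of 10 smooth muscle and pericyte genes. The part of these other cells in the result was not tested.

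Sox17, a SOXF factor of arterial endothelium, had 19.1, 19.9 and 45.5 CPM in HLHS left ventricles, against 21.1, 21.1, 20.2, 24.9 and 27.6 CPM in control left ventricles. It had 15.6, 12.4 and 31.7 CPM in HLHS right ventricles, against 17.2, 20.7, 21.1, 22.03 and 22.5 CPM in control right ventricles. The E17.5 HLHS embryo was above its littermates on both sides, and the E14.5 one was below on the right. Sox17 did not pass on either side (log2 fold change 0.28 ± 0.14 SE, edgeR adjusted p = 0.241 on the left and log2 fold change -0.09 ± 0.19 SE, edgeR adjusted p = 0.812 on the right).

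Of the 3 venous genes, 0 passed on the left by edgeR or DESeq2, with 2, Aplnr and Nr2f2, at an unadjusted p under 0.05, and Aplnr was lower on the right. Aplnr, the apelin receptor of venous endothelium and sinus venosus sprouts, had 23.3, 42.3 and 119 CPM in HLHS left ventricles, against 52.9, 70.4, 70.2, 99.7 and 111 CPM in control left ventricles. It had 20.1, 45.4 and 68.8 CPM in HLHS right ventricles, against 28.5, 69.5, 54.8, 81.1 and 79.6 CPM in control right ventricles. HLHS was below its littermates on both sides at E13.5 and E14.5, and at E17.5 it was above them on the left and below them on the right. Aplnr was 1.31-fold lower on the right (log2 fold change -0.39 ± 0.09 SE, edgeR adjusted p = 0.031) and was not called on the left (log2 fold change -0.46 ± 0.18 SE, edgeR adjusted p = 0.127). The right call was lost without HLHS embryo 1 or 2 or 3 or control embryo 1 or 5 (log2 fold change -0.48 to -0.35, edgeR adjusted p 0.0559 to 0.126). Nr2f2, the venous factor COUP-TFII, and Flt4, the VEGF-C receptor of lymphatic and sprouting endothelium, passed in no comparison, at 0.26 ± 0.09 and 0.06 ± 0.09 on the left.

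Of the 6 capillary genes, Apln and Gpihbp1 were lower in HLHS left ventricles and Gpihbp1 also in the right; all 6 left fold changes were below 0. Gpihbp1, which carries lipoprotein lipase across capillary endothelium, had 9.07, 12.2 and 35.4 CPM in HLHS left ventricles, against 16.1, 23.4, 32.2, 50.7 and 44.05 CPM in control left ventricles. It had 5.48, 11.1 and 26.3 CPM in HLHS right ventricles, against 10.54, 16.6, 21.7, 48.2 and 37.1 CPM in control right ventricles. HLHS lay below each littermate on both sides at all 3 stages, and the groups overlapped across stages, with the gene higher at E17.5 in both. Gpihbp1 was 1.7-fold lower on the left (log2 fold change -0.77 ± 0.15 SE, edgeR adjusted p = 0.0105) and 1.74-fold lower on the right (log2 fold change -0.80 ± 0.13 SE, edgeR adjusted p = 0.012). The left call was lost without HLHS embryo 2 (log2 fold change -0.57, edgeR adjusted p = 0.0621), and the right call without HLHS embryo 1 or 2 or 3 or control embryo 1 (log2 fold change -0.85 to -0.76, edgeR adjusted p 0.0521 to 0.0636). Apln, the apelin ligand made by sprouting tip cells, had 27.9, 23.5 and 21.5 CPM in HLHS left ventricles, against 30.9, 34.03, 39.6, 29.4 and 29.4 CPM in control left ventricles. It had 13.51, 18.9 and 30.7 CPM in HLHS right ventricles, against 12.2, 24.2, 25.04, 27.9 and 29.5 CPM in control right ventricles. On the left all HLHS libraries lay below all control libraries, whereas on the right HLHS was below its littermates at E14.5 alone. Apln was 1.34-fold lower on the left (log2 fold change -0.42 ± 0.10 SE, edgeR adjusted p = 0.0206), a call lost without HLHS embryo 2 or 3 or control embryo 4 (log2 fold change -0.41 to -0.33, edgeR adjusted p 0.0516 to 0.116), and -0.08 ± 0.11 on the right (edgeR adjusted p = 0.692).

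Plvap, the diaphragm protein of fenestrated and endocardial endothelium, had 86.3, 59.99 and 37.8 CPM in HLHS left ventricles, against 70.2, 60.3, 70.02, 54.3 and 45.03 CPM in control left ventricles. It had 82.6, 116 and 71.005 CPM in HLHS right ventricles, against 98.8, 74.4, 78.9, 63.2 and 58.2 CPM in control right ventricles. The HLHS libraries of Plvap overlapped the controls on both sides. Ly6c1, a surface antigen of capillary endothelium, had 0.342, 2.47 and 16.1 CPM in HLHS left ventricles, against 0.715, 2.11, 3.11, 20.6 and 18.5 CPM in control left ventricles. It had 0.585, 2.07 and 11.7 CPM in HLHS right ventricles, against 0.527, 2.98, 2.59, 22.03 and 13.7 CPM in control right ventricles. Its near-identical paralog Ly6c2 was counted at 0 to 0.918 CPM, so reads of the pair may be split. Car4, a carbonic anhydrase of capillaries, had 0.3, 0.502 and 2.18 CPM in HLHS left ventricles, against 0.22, 0.331, 0.663, 7.93 and 4.33 CPM in control left ventricles. It had 0.16, 0.849 and 2.04 CPM in HLHS right ventricles, against 0.234, 0.318, 0.575, 5.37 and 2.80 CPM in control right ventricles. Car4 was below the littermates at E17.5 on both sides, without passing (log2 fold change -0.90 ± 0.43 SE, edgeR adjusted p = 0.209 on the left and log2 fold change -0.36 ± 0.44 SE, edgeR adjusted p = 0.678 on the right). Fabp5, a fatty acid binding protein, passed in no comparison.

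Ratios to Cdh5 of the same library, an endothelial gene that was itself lower in HLHS left ventricles, are given as a description for genes chosen after their values were seen. Relative to Cdh5, Cldn5 in HLHS differed from control by -0.81, -0.83 and -0.79 on the log2 scale at E13.5, E14.5 and E17.5 on the left, and by -0.44, -0.70 and -0.90 on the right. Gpihbp1 relative to Cdh5 differed by -0.48, -0.68 and -0.37 on the left and by -0.56, -0.59 and -0.81 on the right. Vwf relative to Cdh5 differed by 1.06, 1.05 and 0.50 on the left and by 0.076, -0.29 and 0.51 on the right, and Nfatc1 by 0.44, 1.00 and 0.46 on the left and by 0.57, 0.49 and 0.39 on the right. The Vwf ratio was thus high at each stage on the left only. Erg on the left differed by 0.017, -0.11 and -0.016 relative to Cdh5, and by -0.18, -0.25 and -0.019 relative to Pecam1. These ratios come from 1 HLHS embryo a stage and were not tested. The left differences of the general genes were also uneven over litters: Cdh5 differed by -0.35, -0.48 and -0.04, Erg by -0.33, -0.59 and -0.06 and Esam by -0.44, -0.69 and -0.10 at E13.5, E14.5 and E17.5, whereas Cldn5 differed by -1.15, -1.31 and -0.83.

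Between the ventricles of control embryos, 8 of the 40 genes passed in a test with the embryo as a block, where 6.1% of 16238 genes tested passed in either direction, 4.01% as lower and 2.09% as higher on the left. Eng, Tal1, Nfatc1, Klf2, Nos3 and Plvap were lower on the left, and Aplnr and Gpihbp1 were higher. Fold changes lay below 0 for 25 of the 40 genes and for all 4 VEGF and angiopoietin receptors, of which 0 passed. Heart muscle genes passed as lower on the left in 2 of 10, fibroblast genes in 1 of 8 and macrophage genes in 1 of 10. All 8 epicardial genes lay above 0 and 1 passed as higher. The part of these other cells was not tested. Of the 5 endocardial and flow-responsive genes, all 5 fold changes were below 0 and 3 passed: log2 fold change -0.43 ± 0.09 SE, edgeR adjusted p = 0.0245 for Nfatc1, log2 fold change -0.35 ± 0.09 SE, edgeR adjusted p = 0.0414 for Klf2 and log2 fold change -0.34 ± 0.05 SE, edgeR adjusted p = 0.00294 for Nos3. Nos3 and Nfatc1 were lower on the left in 5 of 5 control embryos and Klf2 in 4 of 5. The log2 fold changes were -0.25 ± 0.06 for Eng, -0.37 ± 0.08 for Tal1 and -0.33 ± 0.06 for Plvap, with edgeR adjusted p of 0.0255, 0.021 and 0.00775. Aplnr (log2 fold change 0.38 ± 0.09 SE, edgeR adjusted p = 0.0358) and Gpihbp1 (log2 fold change 0.36 ± 0.08 SE, edgeR adjusted p = 0.0238) were higher on the left. The count was 4 without control embryo 1, 3 without embryo 2 and 5 without embryo 3 or 5, and 0 with no embryo block. Nos3 and Plvap passed without any 1 embryo; Eng was lost without control embryo 2 or 3 or 4 or 5 (log2 fold change -0.26 to -0.20, edgeR adjusted p 0.0545 to 0.141), Tal1 without control embryo 1 or 2 or 5 (log2 fold change -0.35 to -0.31, edgeR adjusted p 0.0555 to 0.0865), Nfatc1 without control embryo 2 or 5 (log2 fold change -0.35 to -0.32, edgeR adjusted p 0.0582 to 0.0822) and Klf2 without control embryo 1 or 2 or 3 or 4 (log2 fold change -0.38 to -0.25, edgeR adjusted p 0.065 to 0.147). Aplnr was lost without control embryo 1 or 3 or 4 or 5 (log2 fold change 0.28 to 0.42, edgeR adjusted p 0.0573 to 0.0822), and Gpihbp1 without control embryo 1 or 2 or 3 (log2 fold change 0.32 to 0.34, edgeR adjusted p 0.0559 to 0.0859).

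In HLHS embryos 3 of the 40 genes passed between the ventricles, where 4.04% of 15771 genes tested did so, 2.89% as lower and 1.15% as higher on the left. In the same comparison 7 of 11 red cell genes passed as higher on the left, 4 of 8 fibroblast genes as lower, and of 10 macrophage genes 1 as higher and 2 as lower, and their part was not tested. Ptprb and Ackr3 were lower and Sox17 was higher on the left. Ptprb was lower on the left in 3 of 3 HLHS embryos (log2 fold change -0.49 ± 0.09 SE, edgeR adjusted p = 0.0207) and in 2 of 5 controls (log2 fold change -0.12 ± 0.11 SE, edgeR adjusted p = 0.573). Sox17 was higher on the left in 3 of 3 HLHS embryos (log2 fold change 0.53 ± 0.12 SE, edgeR adjusted p = 0.0444) and in 4 of 5 controls (log2 fold change 0.13 ± 0.07 SE, edgeR adjusted p = 0.32). The HLHS effect did not pass as different between ventricles for Ptprb (log2 fold change -0.41 ± 0.12 SE, edgeR adjusted p = 0.194) or Sox17 (log2 fold change 0.38 ± 0.13 SE, edgeR adjusted p = 0.234). Without HLHS embryo 2, 0 of the 40 passed, against 5 without embryo 1 and 7 without embryo 3. Ptprb was lost without HLHS embryo 1 or 2 (log2 fold change -0.45 to -0.44, edgeR adjusted p 0.063 to 0.104), and Sox17 without HLHS embryo 2 or 3 (log2 fold change 0.41 to 0.53, edgeR adjusted p 0.0654 to 0.183). Of the 5 endocardial and flow-responsive genes all fold changes were below 0 here as well, with 0 passing by edgeR or DESeq2 and 1 at an unadjusted p under 0.05; that one, Nfatc1, was lower on the left in 3 of 3 HLHS embryos, at -0.35 ± 0.10 (edgeR adjusted p = 0.0966).

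**Figure D3:**
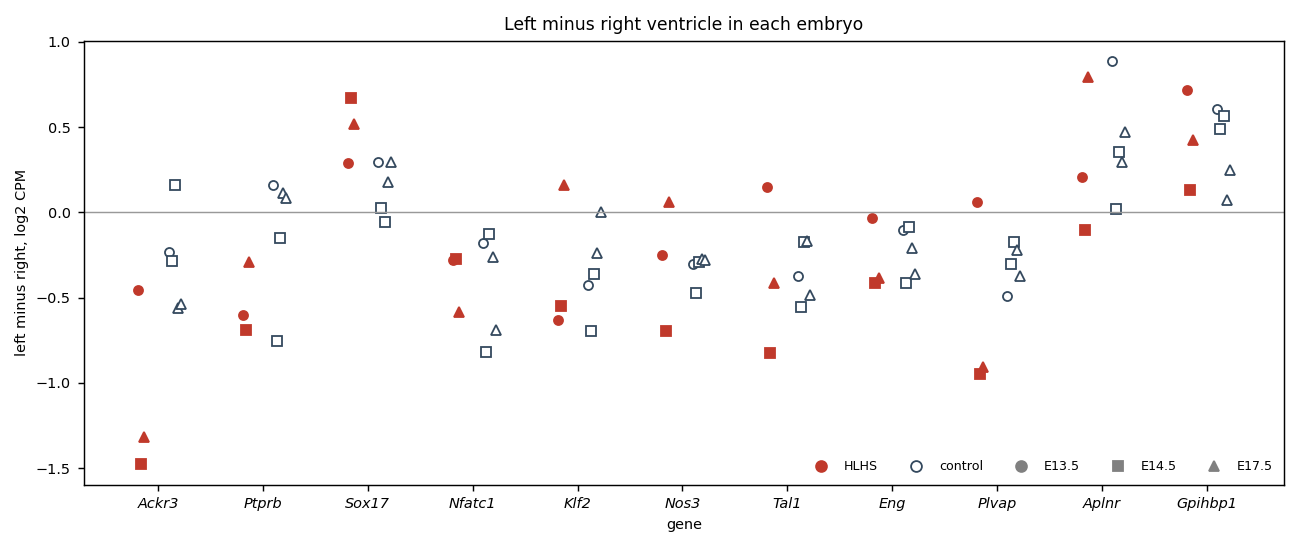
Left minus right ventricle on the log2 CPM scale in each embryo for 11 genes, HLHS filled and controls open, with the marker shape giving the stage. Ackr3 of the E14.5 and E17.5 HLHS embryos, at -1.48 and -1.32, lies below all 5 controls, and Nos3 and Nfatc1 lie below 0 in every control embryo.

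Between E17.5 and E14.5 in controls, 22 of the 40 genes passed, 16 higher and 6 lower at E17.5, by edgeR on the sums of each embryo's left and right counts (2 embryos a stage). Of 17790 genes tested, 28.2% passed, 15.1% as higher and 13% as lower. The median log2 fold change was 0.08 over the 40 genes and -0.011 over all. The widest differences were those of 3 of the 6 capillary genes: Car4 was 11.5-fold higher at E17.5 (log2 fold change 3.52 ± 0.40 SE, edgeR adjusted p = 0.00166), Ly6c1 7.45-fold (log2 fold change 2.90 ± 0.18 SE, edgeR adjusted p = 0.000274) and Gpihbp1 2.06-fold (log2 fold change 1.04 ± 0.17 SE, edgeR adjusted p = 0.00503). The other 3 capillary genes did not pass, and 1 of the 6 had a log2 fold change below 0. Car4 had few counts at E14.5, with 16 and 33 summed over both ventricles of control embryos 2 and 3. Klf2 (log2 fold change 0.94 ± 0.14 SE, edgeR adjusted p = 0.00339), Klf4 (log2 fold change 0.94 ± 0.10 SE, edgeR adjusted p = 0.00148) and Aplnr (log2 fold change 0.59 ± 0.07 SE, edgeR adjusted p = 0.00219) were also higher. Smaller rises were found for Ptprb, Kdr, Vwf, Sox18, Sox17, Flt1, Cd34, Fli1, Ets1 and Esam, from 0.24 to 0.47 on the log2 scale. Mmrn2, Lmo2, Ecscr, Ackr3, Tie1 and Tek fell, by 0.25 to 0.46 on the log2 scale. The receptors thus split: Kdr (0.39 ± 0.07) and Flt1 (0.32 ± 0.07) were higher, while Tek (-0.25 ± 0.06) and Tie1 (-0.29 ± 0.06) were lower at E17.5. Cdh5 (log2 fold change 0.001 ± 0.07 SE, edgeR adjusted p = 0.996) and Pecam1 (log2 fold change 0.09 ± 0.07 SE, edgeR adjusted p = 0.405) did not pass. These edgeR values scale libraries otherwise than CPM and lie somewhat higher. Summed Cdh5 had 363.3 and 360.9 CPM at E14.5 and 325.7 and 344.2 CPM at E17.5. Esam, 1 of the smaller rises, had 85.5 and 91.8 CPM at E14.5 and 100.2 and 93.5 CPM at E17.5. Heart muscle genes moved with stage as well, 6 of 10 higher at E17.5, and red cell genes fell in 4 of 12, and their part was not tested. The count was 16 without control embryo 2 and 15 without embryo 3.

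**Figure D4:**
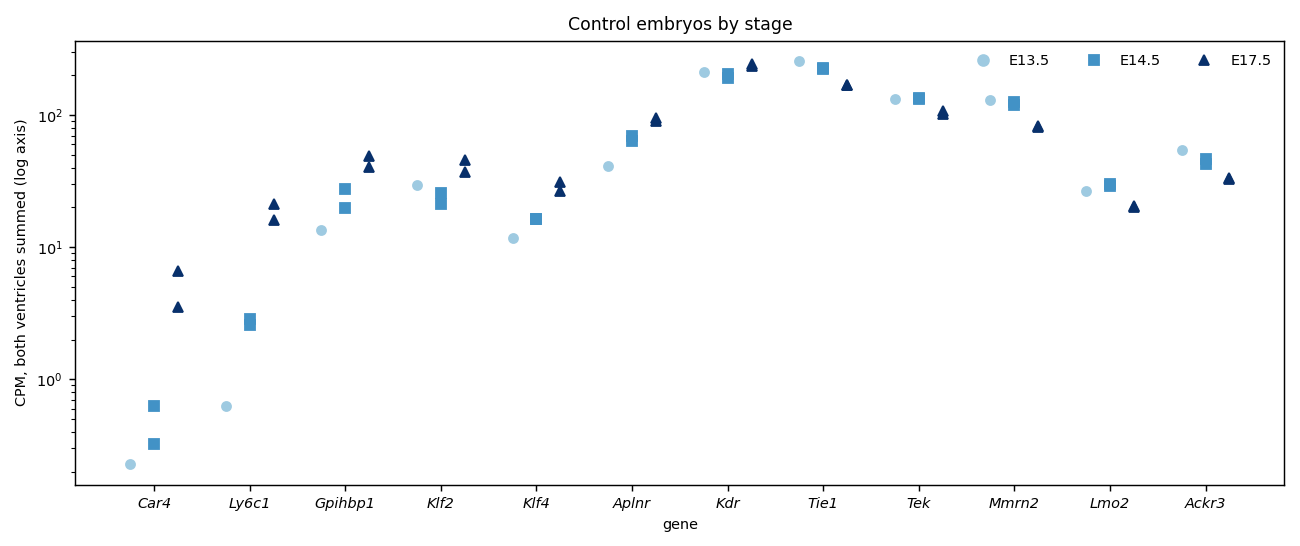
CPM summed over both ventricles of each control embryo for 12 genes at E13.5, E14.5 and E17.5, on a log axis. Car4 and Ly6c1 climb at each stage, while Tie1, Tek, Mmrn2, Lmo2 and Ackr3 are lower at E17.5 than at E14.5. The edgeR estimates for E17.5 over E14.5, 11.5-fold for Car4 and 7.45-fold for Ly6c1, scale libraries otherwise than the plotted CPM.

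A further 57 vessel genes, listed by class, were set beside these, and 56 were tested. On the left 3 were higher and 7 lower in HLHS, with a median log2 fold change of -0.07; on the right 5 were higher and 4 lower, with a median of -0.04. Over all genes tested, 6.17% passed as higher and 6.61% as lower on the left, and 3.56% and 3.05% on the right. The vessel ligand Cxcl12, which binds Cxcr4 and Ackr3, had 248, 245 and 198 CPM in HLHS left ventricles, against 185, 148, 166, 132 and 132 CPM in control left ventricles. It had 205, 246 and 235 CPM in HLHS right ventricles, against 145, 195, 155, 159.9 and 164 CPM in control right ventricles. All HLHS libraries lay above all control libraries on both sides, and Cxcl12 was 1.49-fold higher on the left (log2 fold change 0.58 ± 0.06 SE, edgeR adjusted p = 0.000951) and 1.41-fold on the right (log2 fold change 0.49 ± 0.07 SE, edgeR adjusted p = 0.00685). Dll4, the Notch ligand of arterial and tip cells, had 31.5, 20.6 and 23.9 CPM in HLHS left ventricles, against 44.6, 33.8, 33.9, 33.99 and 28.996 CPM in control left ventricles. It had 27.4, 20.5 and 22.4 CPM in HLHS right ventricles, against 42.3, 33.4, 34.9, 34.2 and 29.4 CPM in control right ventricles. HLHS was below each littermate on both sides at all stages, and Dll4 was 1.44-fold lower on the left (log2 fold change -0.53 ± 0.08 SE, edgeR adjusted p = 0.00453) and 1.55-fold lower on the right (log2 fold change -0.64 ± 0.09 SE, edgeR adjusted p = 0.00685). Of the 10 other endocardial genes, Edn1, the endothelin-1 gene, was higher on the left (log2 fold change 0.65 ± 0.13 SE, edgeR adjusted p = 0.0142) and Postn (-0.30 ± 0.08) and Npr3 (-0.52 ± 0.15) were lower. On the right Nrg1, the neuregulin that drives trabeculation, Hapln1, Bmp6 and Edn1 were higher: log2 fold change 1.53 ± 0.26 SE, edgeR adjusted p = 0.0123 for Nrg1, log2 fold change 1.45 ± 0.24 SE, edgeR adjusted p = 0.0118 for Hapln1, log2 fold change 0.68 ± 0.14 SE, edgeR adjusted p = 0.0222 for Bmp6 and log2 fold change 0.62 ± 0.14 SE, edgeR adjusted p = 0.031 for Edn1. Postn also marks fibroblasts, whose sums on the left are given above, and Hapln1 marks valve tissue. The other pan-endothelial genes Aqp1 (-0.42 ± 0.07) and Fabp4 (-0.34 ± 0.08) were lower on the left, Arhgef15 (-0.37 ± 0.07) on the right. Of the arterial genes Unc5b was higher on the left (0.46 ± 0.09) and Notch4 lower on the right (-0.44 ± 0.09). Nrp2 (-0.24 ± 0.05) and Efna1 (-0.28 ± 0.08) were lower on the left and Vegfa (-0.29 ± 0.07), the main VEGF ligand, on the right, all on the log2 scale with SE. For the difference in effect between ventricles, 0 of the 56 passed by edgeR, 15 had an unadjusted p under 0.05, and DESeq2 called 3.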

How the data were processed

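RNA of both ventricles of 8 embryos was sequenced in 16 libraries, made with a TruSeq v2 kit from total RNA, per the labels' protocols. The authors deposited a table of whole-number read counts per gene. The submitters' processing notes name mouse build mm9 and the tools HTSeq 0.5.4p5, TopHat2 2.0.9, edgeR 3.4.2 and Picard; the role of each, the annotation, the strand setting and any removal of duplicate reads are not given in those sources. Without strand, reads of overlapping or antisense genes cannot be told apart. Symbols were found for 32919 of 37991 Ensembl identifiers (86.6%), and identifiers without one hold 0.492% of the counts. Gene coordinates are not printed apart from promoter windows of GRCm38.p6, because the files use another build. The authors' own comparison tables were not used here.

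Samples were grouped by the phenotype, side and stage of the labels. Tests used edgeR 4.0.16 under R 4.3.3, with filterByExpr at minimum counts of 10 per library and 15 in total, TMM factors, glmQLFit and glmQLFTest, and p-values were adjusted by Benjamini-Hochberg over all genes tested, at a threshold of 0.05. All 40 matched genes passed the count filter in all 6 comparisons. The HLHS effect was fitted per ventricle beside a stage term. The difference in effect between ventricles was tested over 16 libraries with an embryo block, side, side-by-stage and side-by-phenotype terms. Left was compared with right within embryos, and E17.5 with E14.5 on counts summed per control embryo, with E13.5 as a stage of its own. Log2 differences within a litter or embryo used CPM + 0.1. DESeq2 1.42.0, other size factors, no count filter, globin genes left out, no block and leaving out embryos or litters were the alternatives. Each fit was also run on simulated counts. The changes planted there were larger than most reported here and lay in well-counted genes, so smaller changes were not tested.

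The genes and lists were chosen with earlier results of these data known. Library values are given for genes past the threshold in any of the 6 comparisons and for Pecam1, Cdh5 and Kdr; of the other vessel genes those past the threshold are named, up to 4 a list. Replicate numbers mark the embryo, so the labels pair its ventricles. Same-embryo deviations from group means correlated with r of 0.443 to 0.779 over 15297 genes, and those of different embryos with r of -0.633 to 0.588. The group means pool the stages, so these r do not separate embryo from stage, and each HLHS embryo is its own stage. Between control embryos 4 and 5, both of E17.5, r was 0.588 and 0.538, against 0.509 within control embryo 2. All 26 pairs of libraries of the same group differed by more than counting noise, with chi-square per degree of freedom of at least 7.51. Promoter motifs were counted in the RefSeq table on both strands.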

Additional observations from a re-analysis of the deposited data

Results flagged for a closer look

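In 80 groups of 5 control libraries, 4 held a library that stood apart by Dixon's test, where chance marks about 1 group in 20. All 4 were the E13.5 control embryo, which is the only control of its stage. The gap to the nearest library, as a share of the group's range, was 0.747 for Fli1, where the right library was lowest. It was 0.779 for Sox7 and 0.73 for Nos3, where the left library was highest. It was 0.775 for Apln, where the right library was lowest. The HLHS effect on Ackr3 differed between the ventricles, by -0.83 on the log2 scale (left minus right), in the interaction test given above.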

How the results depend on the processing

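Over 655 values of single genes under the alternatives, 478 kept direction and side of the threshold, 165 lost the threshold, 9 gained it and 3 changed sign: Pecam1 in the right ventricle was 0.005 on the log2 scale without control embryo 1, without HLHS embryo 1 or without the E13.5 litter, against -0.08 with all embryos and -0.17 without HLHS embryo 3. Each of the 3 settings takes E13.5 out of the HLHS effect, so they are nearly the same fit and not separate changes of sign. The 655 values are those of genes called in the main fit, plus Pecam1, Cdh5 and Kdr for HLHS against control. A called gene cannot gain the threshold, so losses and gains cannot be set against each other. Of the 11 genes called on the left, 0 passed with no replicate block (here the stage term), 5 without the E13.5 litter and 3 without the E14.5 litter, and leaving out embryos gave 2 to 18. Of the 5 on the right, the count was 8 with no count filter, 0 with no replicate block, 2, 2 and 1 without the E13.5, E14.5 and E17.5 litters, and 1 to 7 without an embryo. The count of differences between ventricles, 1, was 0 with no replicate block or no side-by-stage term, 2 without the E13.5 litter and 0 to 2 without an embryo. Left against right gave 8 in controls, 0 with no replicate block and 3 to 9 without an embryo, and 3 in HLHS, 5 by DESeq2, 8 with no count filter, 0 with no replicate block and 0 to 7 without an embryo. The 22 stage calls ran from 15 to 22 without an embryo, and no block applied to them. The causes were not tested. The litter and side-by-stage alternatives were chosen after seeing the data. With 1 HLHS embryo a stage, the design cannot separate an embryo from its stage, and p-values measure the spread between embryos of few litters.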

Other observations

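In control embryos 6 of 10 other endocardial genes passed as lower on the left, and all 10 fold changes were below 0. Of 20 other pan-endothelial genes, 2 passed as lower and 1 as higher, and 12 fold changes were below 0. Over all genes tested in controls, 4.01% passed as lower and 2.09% as higher on the left. Hapln1, a matrix link protein of valves, was 3.23-fold lower on the left (log2 fold change -1.69 ± 0.23 SE, edgeR adjusted p = 0.00267), Tmem100 was at -0.51 ± 0.10 (edgeR adjusted p = 0.0189), Foxc1 at -0.41 ± 0.07 (edgeR adjusted p = 0.00621) and Postn at -0.42 ± 0.08 (edgeR adjusted p = 0.0182). In HLHS embryos 5 of the 10 were lower on the left, where 2.89% of all genes tested passed as lower. Hapln1 was 4.66-fold lower there, Tmem100 2.18-fold lower and Postn 2.0-fold lower. Gja5, the connexin 40 of arteries and the conduction system, which trabecular muscle also expresses, was 2.82-fold higher on the left in HLHS and 2.48-fold higher in controls. Whether the classes differ in these counts was not tested.

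With stage, 16 of the 56 other vessel genes were higher and 10 lower at E17.5 than at E14.5 in controls. Over all 17790 genes tested in that comparison, 15.1% passed as higher and 13% as lower. Whether the vessel genes differ from these shares was not tested. Lyve1, a hyaluronan receptor of lymphatic endothelium and some macrophages, was 3.13-fold higher (edgeR adjusted p = 0.000274), Aqp1, a water channel of capillaries, 1.98-fold higher (edgeR adjusted p = 0.000335) and the lipid carrier Fabp4 1.68-fold higher (edgeR adjusted p = 0.00588). Foxc1 was 2.02-fold lower (edgeR adjusted p = 0.000676), Bmx 1.69-fold lower and Gja5 1.55-fold lower at E17.5. Among ligands Angpt2 was 1.75-fold higher and Angpt1 1.75-fold lower at E17.5, and Vegfa was 1.55-fold higher.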
